A study of Mus musculus with 6 samples.

Results

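The genes described here are 10 genes of the circadian clock, chosen by symbol: Clock, Per1, Per2, Per3, Cry1, Ciart, Nr1d1, Nr1d2, Dbp and Tef. They are 10 of the 53647 genes listed in droplet single cell RNA sequencing of the mouse proximal pulmonary artery (PA). The choice followed no rule on measured values, but it was made with earlier results of these data known. Each library came from an enzymatic digest of the artery of wild type C57BL/6J mice kept on a light and dark cycle, and there were 2 young and 4 old libraries. Both young libraries came from mice 3 months old. The study described 3 young mice, 2 males and 1 female, and only 2 young libraries were given here. Of these, 1 was labelled female, and the other, whose label gave no sex, was taken as male. The old mice were aged 20, 24, 27 and 28 months, of which the oldest was a female and the rest were described as male. Young mice came from a commercial breeder and old mice from that breeder or a national aging colony, and the source of each library was not given in the sources used here. The clock time of tissue harvest was not given in the sources used here, so age and harvest time cannot be told apart in any comparison below.

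The mammalian clock is a feedback loop that runs in nearly every cell. CLOCK, or its relative NPAS2, pairs with ARNTL and switches on genes that carry E-box sequences, among them the Per, Cry, Nr1d and Dbp genes. PER and CRY proteins then shut this pair off. The REV-ERB receptors, encoded by Nr1d1 and Nr1d2, repress Arntl, Npas2 and Clock, so the RNA of Dbp and the REV-ERBs peaks at about the opposite time of day from that of Arntl and Npas2. In the vessel wall this loop is known for daily changes in tone and pressure.

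The promoter sequences of the members show where the loop can act. RefSeq promoters (GRCm38.p6, 250 bases before to 50 bases after a start site) were matched by symbol for 9 of the 10 members, with 13 start sites in all, and Per2 had no entry. An E-box (CACGTG, the same on both strands) was found for 4 of the 9 genes, against 7.15% of all 32851 promoters. These are unlike counts, since a gene could have several start sites and the percentage is over single windows. Dbp, Nr1d1, Nr1d2, Per3 and Clock held no E-box in their windows. A D-box (TTATGTAA or TTACGTAA, either strand), the element bound by the proteins that Dbp and Tef encode, was found for 1 gene, Per3, which held 2 copies of TTATGTAA. That D-box stood in 0.938% of all promoters and TTACGTAA in 0.119%. Neither the REV-ERB core TAGGTCA (2.61% of all promoters) nor the cyclic AMP element TGACGTCA (1.79%) was in any of the members' windows. These are descriptions of letters in a short window and say nothing of binding.

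Sequences are given for the 4 members with an E-box in the window, and capitals mark the E-box. The windows lie at chr3:95882179-95882478 on the minus strand for Ciart, chr10:85185005-85185304 on the minus strand for Cry1, chr15:81802423-81802722 on the plus strand for the first start of Tef, and chr11:69098699-69098998 on the plus strand for the first start of Per1. Ciart, whose RNA differed most between libraries, held 3 E-boxes, which began 116, 58 and 44 bases before the start. The other windows held 1 each, beginning 60 bases before the start in Cry1, 127 in Tef and 166 in Per1.
Ciart: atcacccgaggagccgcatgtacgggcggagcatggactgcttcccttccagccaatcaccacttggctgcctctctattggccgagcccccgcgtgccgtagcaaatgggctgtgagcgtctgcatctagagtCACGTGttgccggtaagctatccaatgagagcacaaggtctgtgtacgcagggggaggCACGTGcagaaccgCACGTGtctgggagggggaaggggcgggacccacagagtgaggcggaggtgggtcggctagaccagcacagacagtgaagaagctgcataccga
Cry1: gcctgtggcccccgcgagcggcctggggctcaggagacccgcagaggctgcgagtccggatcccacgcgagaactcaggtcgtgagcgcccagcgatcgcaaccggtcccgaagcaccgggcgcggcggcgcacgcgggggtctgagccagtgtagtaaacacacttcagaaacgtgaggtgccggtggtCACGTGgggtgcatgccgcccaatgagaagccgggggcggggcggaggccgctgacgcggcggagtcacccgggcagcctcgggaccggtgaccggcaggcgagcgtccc
Tef: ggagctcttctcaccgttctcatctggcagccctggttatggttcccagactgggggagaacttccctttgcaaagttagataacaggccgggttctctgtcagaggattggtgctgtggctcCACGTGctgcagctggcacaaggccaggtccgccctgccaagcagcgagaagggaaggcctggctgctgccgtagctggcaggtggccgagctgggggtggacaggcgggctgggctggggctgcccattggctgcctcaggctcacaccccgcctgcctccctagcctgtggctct
Per1: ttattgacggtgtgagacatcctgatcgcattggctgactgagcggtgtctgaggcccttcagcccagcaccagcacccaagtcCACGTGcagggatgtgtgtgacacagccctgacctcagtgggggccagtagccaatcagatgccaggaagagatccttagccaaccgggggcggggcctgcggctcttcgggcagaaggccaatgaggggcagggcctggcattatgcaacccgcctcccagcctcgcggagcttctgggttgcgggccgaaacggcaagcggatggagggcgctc

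Libraries held between 6355125 and 50436562 unique molecular identifiers (UMIs, the counted RNA molecules). After filtering, 15409 cells remained, 929 to 4024 a library, with a median depth of 799 to 8118.5 UMIs a cell. Cells were grouped into classes by markers, without clock genes, and counts were summed per class and library into 64 profiles of at least 10 cells, which held 8689 to 14402171 UMIs. Levels are given in CPM, the counts scaled to a fixed total of UMIs for each profile. Smooth muscle cells (SMCs) could be profiled only in the 20, 27 and 28 month libraries, since the other libraries held 5 cells or fewer of this class. Clusters 5 and 17, in which all 8 smooth muscle markers were also raised, were kept apart from it by the naming rule. Cluster 5 held cells of the 27 and 28 month libraries only. Fibroblasts (FBs), endothelial cells (ECs), macrophages (MΦs) and airway epithelial cells were present in all 6 libraries. However, FBs of the young female numbered only 29 and airway cells of the 28 month library only 21. Cells of 1 class often fell into different clusters by library. FBs of the 27 and 28 month libraries were mostly in cluster 1 and those of the other 4 in cluster 8. ECs were mostly in cluster 6 in the 20 month library, in cluster 7 in the 27 and 28 month libraries and in cluster 12 in the others. MΦs were mostly in cluster 4 in the young male and 24 month libraries and in clusters 23, 29, 24 and 13 in the young female, 20, 27 and 28 month libraries. SMCs were mostly in cluster 25 in the 20 month library and all in cluster 0 in the 27 and 28 month libraries. Airway cells were spread over clusters 10, 11 and 15, whose leading genes included Scgb1a1, Krt5 and Dnah5. The largest was cluster 10 in the young male and female (44.2% and 43.3% of cells) and cluster 11 in the 20 and 24 month libraries (44.1% and 40.2%). It was cluster 15 in the 27 and 28 month libraries (53.8% and 52.4%).

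The library described as a 20 month male carried 2392 Xist UMIs and 2 Eif2s3y UMIs in kept cells, against 46 and 1873 in the 27 month male library, so its sex goes against the description, although 203 Ddx3y UMIs, also from the Y chromosome, were counted in it. The share difference and the differences of library effects without this library are given in the closing part. The young male, young female and 24 month libraries shared cell barcodes pairwise (130, 155 and 213 barcodes), and 240, 275 and 399 of the 260, 310 and 426 cells concerned were airway epithelial cells. Airway values are therefore also given without those cells. No other pair of libraries shared more than 4 barcodes. Xist was also counted in the young male and 24 month libraries, at 149 and 164 UMIs, beside 105 and 203 Eif2s3y UMIs. The source of this Xist was not tested.

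Of the 10 members, 9 were detected. Across kept cells, the UMI totals were 7170 for Clock, 3726 for Tef, 3724 for Per1, 2958 for Nr1d2, 2610 for Per2, 2368 for Nr1d1, 1618 for Cry1, 1328 for Dbp and 156 for Ciart. Per3 was listed at 0 in every library, in kept cells and in all other barcodes alike, and nothing further can be said of it.

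Dbp encodes a transcription factor that the clock drives with large daily swings and that passes the rhythm to output genes. In ECs its level was 118 CPM in the young male, 160 CPM in the young female, 100 CPM in the 20 month, 7.03 CPM in the 24 month, 3.61 CPM in the 27 month and 66.7 CPM in the 28 month library. The first 3 and the 28 month library were high, and the 24 and 27 month libraries rested on 1 and 4 UMIs. The old libraries were all below the young ones, although the counting interval of the young male, 47.3 to 242 CPM, covered the values of the 20 and 28 month libraries. In mesothelial cells, which line the outer surface of the lung, Dbp was at 198 CPM in the young male, 228 CPM in the 20 month, 28.4 CPM in the 24 month, 14.5 CPM in the 27 month and 183 CPM in the 28 month library. The same libraries were high and low as in ECs.

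In FBs Dbp was at 177 CPM in the young male, 0 of 20929 UMIs in the young female, 52.4 CPM in the 20 month, 0 of 198827 UMIs in the 24 month, 12.9 CPM in the 27 month and 7.73 CPM in the 28 month library. The young female's count of 0 allows a level of up to 143 CPM and that of the 24 month library up to 15.1 CPM. The 28 month library, which was high in ECs and mesothelial cells, was low in FBs. In SMCs Dbp was at 53.4 CPM in the 20 month, 4.17 CPM in the 27 month and 18.0 CPM in the 28 month library.

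In airway epithelial cells Dbp was at 36.1 CPM in the young male, 57.4 CPM in the young female, 6.49 CPM in the 20 month, 9.55 CPM in the 24 month, 6.52 CPM in the 27 month and 9.45 CPM in the 28 month library. Both young libraries were above all 4 old ones, here including the 20 month library that was high in the vessel wall. The levels of the 20, 24, 27 and 28 month libraries rested on 2, 13, 9 and 3 Dbp UMIs. Without cells whose barcodes occurred in several libraries the young values were 35.2 and 66.0 CPM and the 24 month library had 0 Dbp UMIs. In B cells Dbp stayed between 2.49 and 11.4 CPM in the 4 libraries other than the young female, whose 14466 B cell UMIs held none, and in MΦs it lay between 0 and 32.6 CPM.

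**Figure D1:**
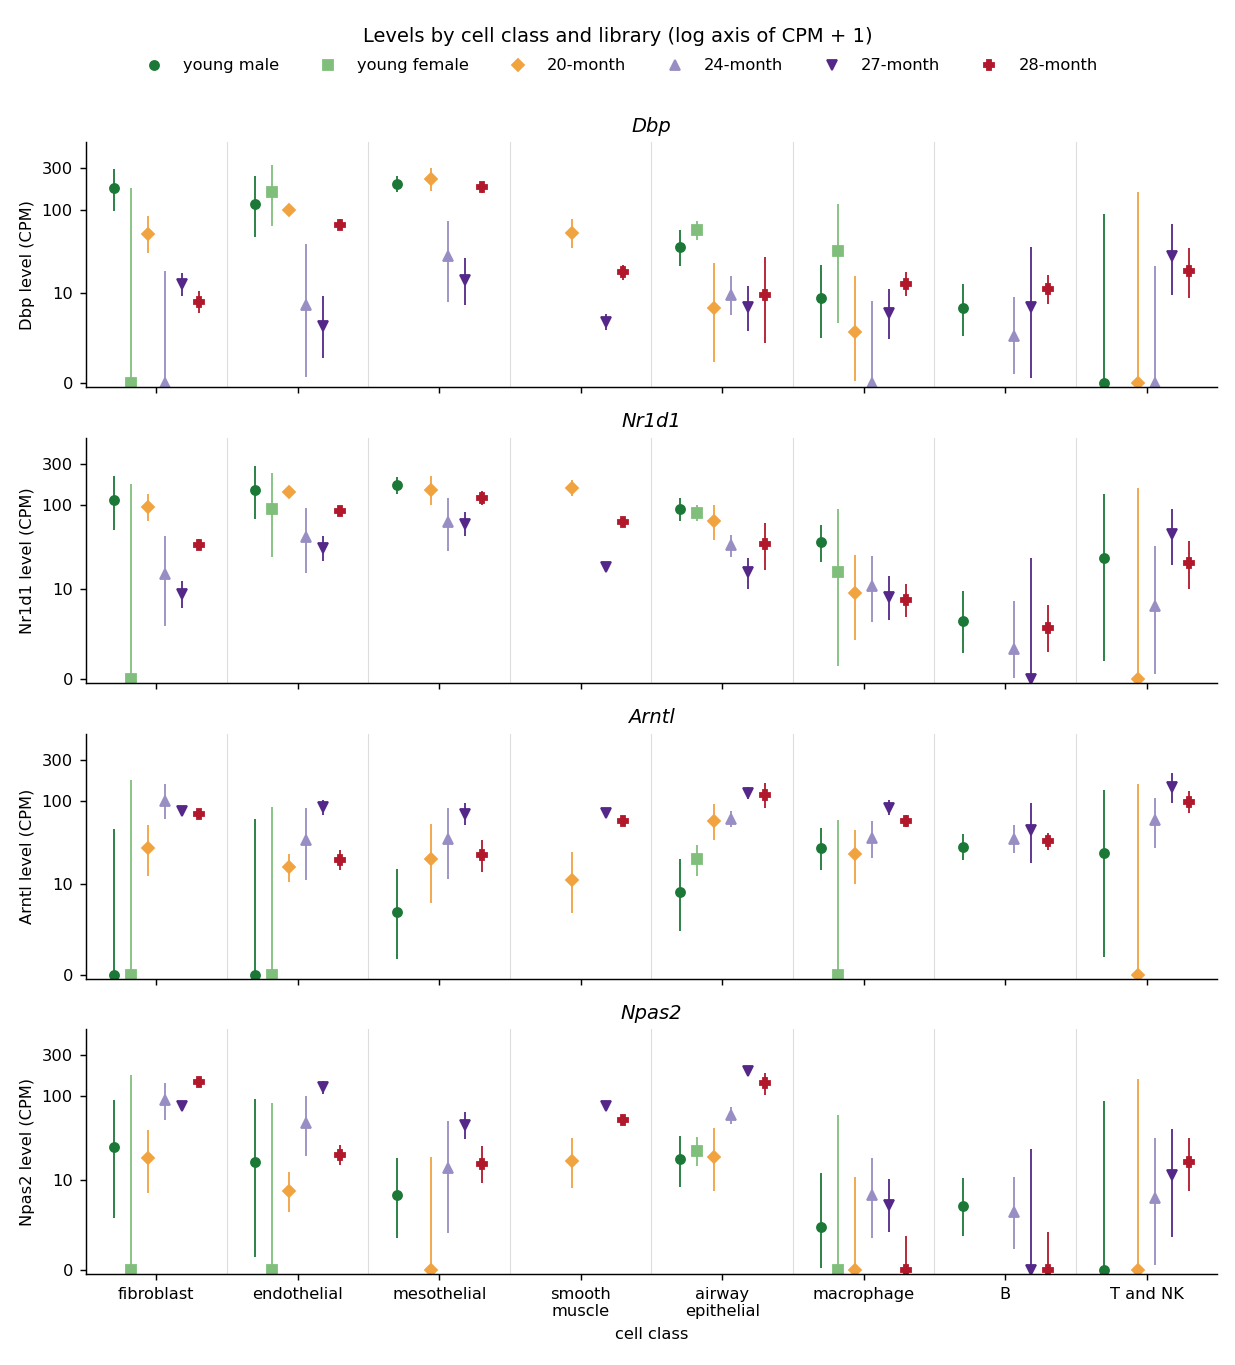
Levels of Dbp, Nr1d1, Arntl and Npas2 in CPM on a log axis of CPM + 1, by cell class on the horizontal axis, with 1 point for each library and bars for 95% Poisson intervals; profiles under 20000 UMIs are left out. ECs of the 28 month library stand with the young and 20 month libraries (66.7 CPM of Dbp) and its FBs with the 24 and 27 month libraries (7.73 CPM).

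Nr1d1 and Nr1d2 encode the REV-ERB repressors. Nr1d1 in ECs was at 151 and 91.2 CPM in the young male and female, and at 143, 42.2, 31.6 and 86.1 CPM in the 20, 24, 27 and 28 month libraries. The 20 month library was within the young range and the 27 month library was lowest. In SMCs Nr1d1 was at 160, 18.7 and 64.4 CPM in the 20, 27 and 28 month libraries, the same order as Dbp. Nr1d2 in airway cells was at 118 and 106 CPM in the young male and female and at 48.6, 67.6, 19.6 and 31.5 CPM in the 20, 24, 27 and 28 month libraries, so the groups did not overlap.

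Over 50 profiles, each centred within its class, Nr1d1 (r = 0.74) and Nr1d2 (r = 0.74) were the genes most like Dbp among 7656 genes, ahead of any gene outside the clock. The profiles share libraries, so these correlations are a description. The most similar genes outside the clock lists were Rpp21 (r = 0.67), Fancc (r = 0.58), Osgep (r = 0.58), Pex19 (r = 0.57) and Hspb1 (r = 0.57). Outside the clock lists, those most like Nr1d1 were Wdr83os and Atp6v0e (both r = 0.71), Mettl23 (r = 0.71), Palm (r = 0.69) and Sh3bgrl3 (r = 0.68). Dbp had rank 1 for likeness to Nr1d1, but Nr1d2 had only rank 42 (r = 0.57) and Tef rank 987 (r = 0.28). Npas2 (r = -0.57) and Cry1 (r = -0.44) ran opposite to Dbp, and Arntl less so (r = -0.31). The likeness of Per1 (r = 0.20) and Per2 (r = 0.14) to Dbp was weak.

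Per1 and Per2 encode repressors of the loop, and Per1 is also induced by stress and glucocorticoids. Per1 varied least of the 9 detected members, with library effects that spanned 0.76 on the log2 scale. A library effect is the level of a gene in a library after a Poisson fit that removes class differences, centred on the 6 libraries. Per2 in ECs was at 118 and 114 CPM in the young male and female and at 52.2, 42.2, 20.8 and 25.5 CPM in the 20, 24, 27 and 28 month libraries, so every old library was lower. The young EC levels of Per2 rested on 12 UMIs in all. In airway cells Per2 did not separate the groups, since the 27 month library, at 94.9 CPM, was as high as the young male at 94.3 CPM and above the young female at 81.2 CPM.

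Ciart encodes a repressor of CLOCK and ARNTL and was the rarest member. Its 6 libraries held 36, 9, 34, 18, 37 and 18 UMIs in the order young male, young female, 20, 24, 27 and 28 months, although the last 2 libraries were the deepest. Its library effects were 1.36, 2.14, 0.93, 0.60, -2.08 and -2.95 in that order, the widest span of any member at 5.09. Cry1, a repressor whose RNA peaks later than that of the Per genes, had its highest library effect in the 27 month library at 1.30, with the other 5 between -0.74 and 0.11.

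Tef encodes a transcription factor of the same family as Dbp and was less variable than Dbp, with library effects between -0.90 in the 24 month and 0.40 in the 28 month library. Clock encodes the activating partner of ARNTL and is known for weak daily changes. Its library effects were highest in the 27 and 28 month libraries at 0.61 and 0.54, which were also the 2 deepest, and lowest in the 20 month library at -0.61. The part that depth plays in this was not tested.

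Arntl and Npas2 are not members but mark the opposite arm of the loop. Arntl in airway cells was at 8.02 and 20.3 CPM in the young male and female and at 58.4, 61.7, 124 and 117 CPM in the 20, 24, 27 and 28 month libraries, so every old library was higher. In FBs Arntl was at 0 UMIs in both young libraries and at 27.7, 101, 75.9 and 70.9 CPM in the 20, 24, 27 and 28 month libraries. The count of 0 allows up to 143 CPM in the young female and up to 37.9 CPM in the young male, so a difference was not detectable in the young female at this depth. Npas2 in FBs of the 28 month library reached 148 CPM while in its ECs it was at 20.4 CPM. In the 27 month library Npas2 was at 76.5 CPM in FBs and 128 CPM in ECs.

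**Figure D2:**
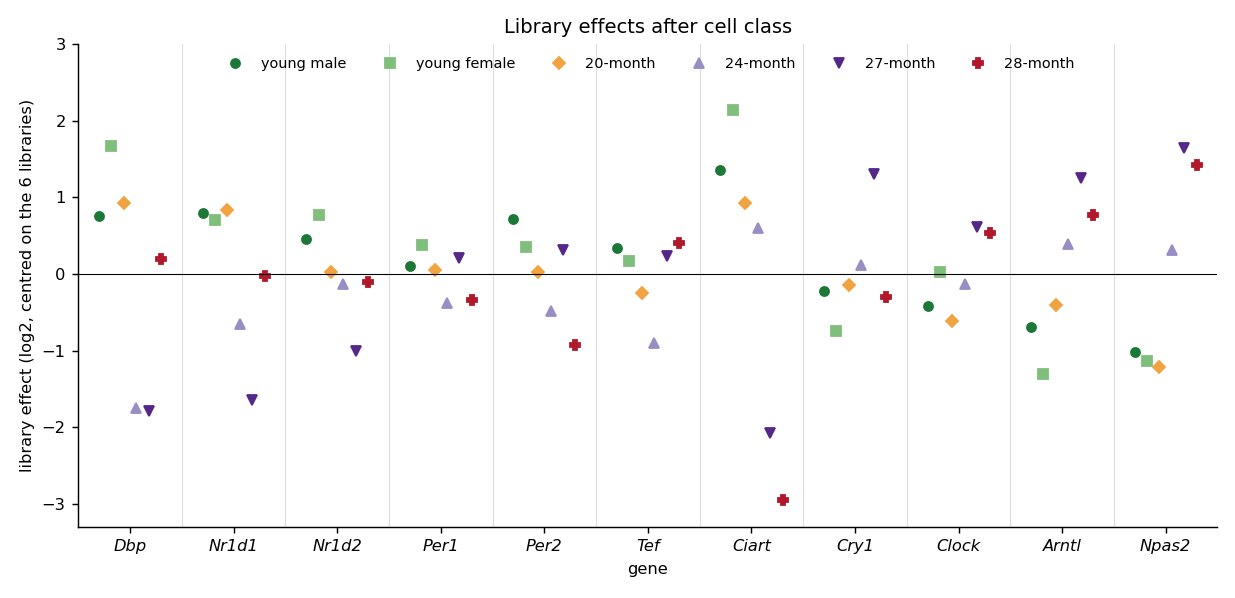
Library effects on the log2 scale, centred on the 6 libraries, for the 9 detected members and for Arntl and Npas2, with 1 point for each library. Dbp sits at 0.75 to 1.67 in the young and 20 month libraries and at -1.75 and -1.79 in the 24 and 27 month libraries, while Npas2 is below -1 in the former 3 and above 0 in the other 3.

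To describe a library's phase in 1 number, the UMIs of the Per and Dbp group (Per1, Per2, Per3, Nr1d1, Nr1d2, Dbp, Tef and Ciart) were divided by the sum of these and of Clock, Cry1, Arntl and Npas2. In FBs this share was 88.2% (95% Wilson interval 78.5 to 93.9) in the young male, 70.0% (39.7 to 89.2) in the young female and 78.2% (71.1 to 84.0) in the 20 month library. It was 29.3% (20.5 to 39.9), 40.4% (38.1 to 42.8) and 31.5% (29.8 to 33.3) in the 24, 27 and 28 month libraries. The intervals cover counting error only. In FBs the 20 month library thus lay with the young ones and the 3 oldest libraries lay lower, with only the wide interval of the young female reaching them.

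In ECs the share was 89.7% and 92.3% in the young male and female, 85.3% in the 20 month, 52.8% in the 24 month and 43.2% in the 27 month library, and it was 77.6% (75.7 to 79.3) in the 28 month library. In mesothelial cells it was 92.1% in the young male, 89.0% in the 20 month, 59.4% in the 24 month, 49.0% in the 27 month and 80.9% in the 28 month library. The 28 month library was therefore high in ECs and mesothelial cells and low in FBs, a gap of 46.0 and 49.4 percentage points. The corresponding gap between ECs and FBs was 1.42 points in the young male, 22.3 in the young female, 7.12 in the 20 month, 23.5 in the 24 month and 2.71 in the 27 month library. In the 28 month library airway cells (38.6%), MΦs (43.2%), SMCs (50.9%) and lymphatic ECs (55.5%) lay between FBs and ECs. Its EC clusters were not alike, since the share was 82.8% in cluster 7 and 73.7% in cluster 28 but 51.0% (44.8 to 57.3) in cluster 20.

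In airway cells the share was 83.6% and 78.8% in the young male and female and 56.5%, 53.8%, 37.8% and 38.6% in the 20, 24, 27 and 28 month libraries. Without shared barcodes it was 83.3% in the young male, 73.1% in the young female and 45.8% in the 24 month library. The 20 month library, at 85.1% in SMCs and 85.3% in ECs, was thus lower in airway cells by 28.8 points than in ECs. In MΦs the share was 68.5% in the young male, 73.9% in the young female, 78.4% in the 20 month library, and 49.5%, 47.3% and 43.2% in the 24, 27 and 28 month libraries.

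Among classes with a share in 3 or more libraries, the span was smallest in lymphoid cells, which had a share in only 3 or 4 libraries. In B cells the share was 48.0% (40.8 to 55.3) in the young male against 52.0%, 55.6% and 46.8% in the 24, 27 and 28 month libraries. It therefore spanned 8.77 points over 4 libraries, while it spanned 59.0 points over 6 libraries in FBs, 49.2 in ECs, 45.8 in airway cells and 35.1 in MΦs. In T and NK cells it spanned 8.11 points over the 24, 27 and 28 month libraries, as the young male and 20 month profiles held too few clock UMIs. Those 3 libraries spanned 43.2% to 77.6% in ECs and 29.3% to 40.4% in FBs, but 43.2% to 49.5% in MΦs. A small span over them was thus not particular to T and NK cells. B cells were mostly in cluster 2 in the young male, 3 in the 24 month and 18 in the 27 and 28 month libraries. Over all profiles with at least 10 clock UMIs, the share ran from 37.8% (airway cells) to 64.9% (monocytes and dendritic cells) in the 27 month library, from 29.3% to 59.4% in the 24 month, from 56.5% to 89.0% in the 20 month and from 31.5% to 80.9% in the 28 month library. It ran from 9.09% to 92.3% in the young male and from 20.3% to 100% in the young female, where the lowest profile was the unnamed cluster 14 in both, with 11 and 69 clock UMIs. In every library but the young female, some named classes thus had intervals that did not overlap. In the young female only cluster 14 stood apart, and her other profiles, from 70.0% to 100%, had overlapping intervals. The share also takes in class differences in the levels of these genes, so unequal shares alone do not show unequal phase. Whether the differences between libraries follow harvest time was not tested, since no harvest times were given.

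**Figure D3:**
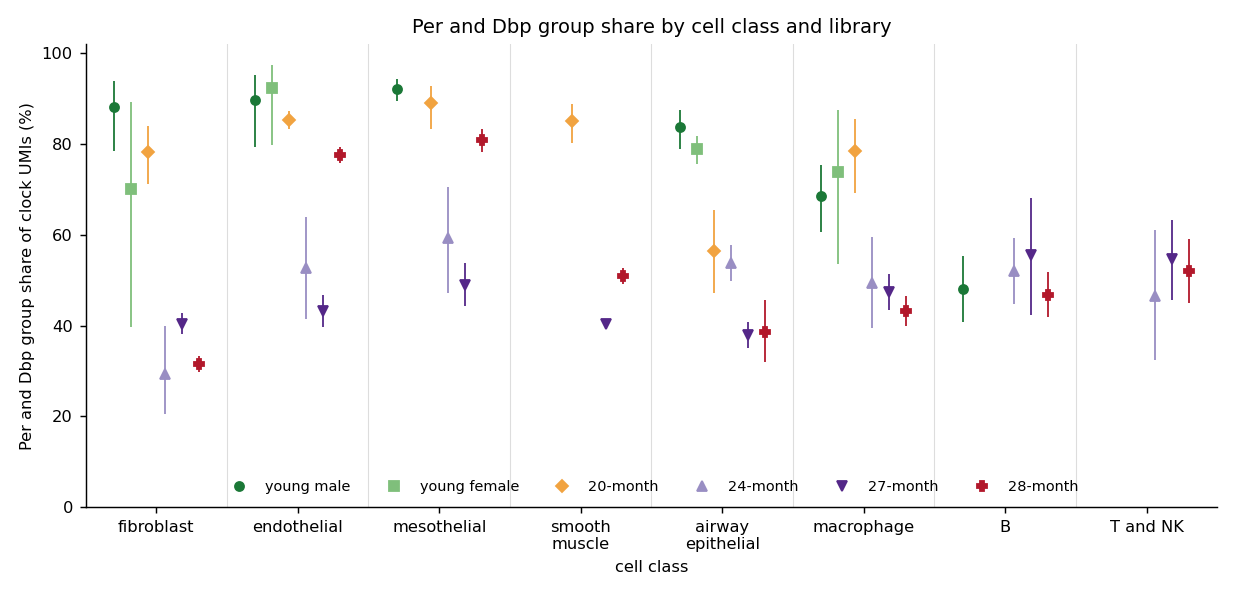
Share of the Per and Dbp group among clock UMIs in percent, by cell class on the horizontal axis, with 1 point for each library with at least 10 clock UMIs and bars for 95% Wilson intervals. The 6 libraries spread over 59.0 points in FBs and the 4 B cell profiles over 8.77 points, and the 28 month library lies at 77.6% in ECs and 80.9% in mesothelial cells but 31.5% in FBs.

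The pattern was also present within single EC and FB clusters. In MΦ cluster 4 the share was 67.8% in the young male and 53.2% in the 24 month library. The 20 month library was at 80.0% (49.0 to 94.3) there, from 10 clock UMIs. The 28 month library, lowest in MΦs as a class, went the other way there, at 81.2% (57.0 to 93.4) from 16 clock UMIs. In MΦ cluster 23 the young male and female were at 73.9% and 69.2% and the 24 month library at 41.4%. These values rested on 23, 13 and 29 clock UMIs. In EC cluster 12, the share was 88.7% and 91.9% in the young male and female and 89.7%, 52.5%, 42.9% and 81.2% in the 20, 24, 27 and 28 month libraries. In FB cluster 8, it was 87.5% in the young male, 70.0% in the young female and 78.1%, 29.5%, 45.7% and 45.1% in the 20, 24, 27 and 28 month libraries. In EC cluster 7, where the 27 and 28 month libraries both had at least 191 cells, it was 43.1% and 82.8%, and in FB cluster 1 it was 39.7% and 30.4%. In airway cluster 10 the share was 87.9% and 79.0% in the young male and female and 57.9%, 53.2%, 32.2% and 21.3% in the 20, 24, 27 and 28 month libraries. In the same order it was 79.7%, 68.4%, 50.9%, 45.7%, 35.6% and 43.5% in airway cluster 11. In airway cluster 15 it was 79.0%, 82.6%, 73.3%, 62.3%, 41.5% and 44.1%. The 5 clusters with at least 10 clock UMIs in every library were FB cluster 8, EC cluster 12 and airway clusters 10, 11 and 15. No MΦ cluster was among them. Their mean shares were 84.6% in the young male, 78.4% in the young female and 70.0%, 48.6%, 39.6% and 47.0% in the 20, 24, 27 and 28 month libraries.

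**Figure D4:**
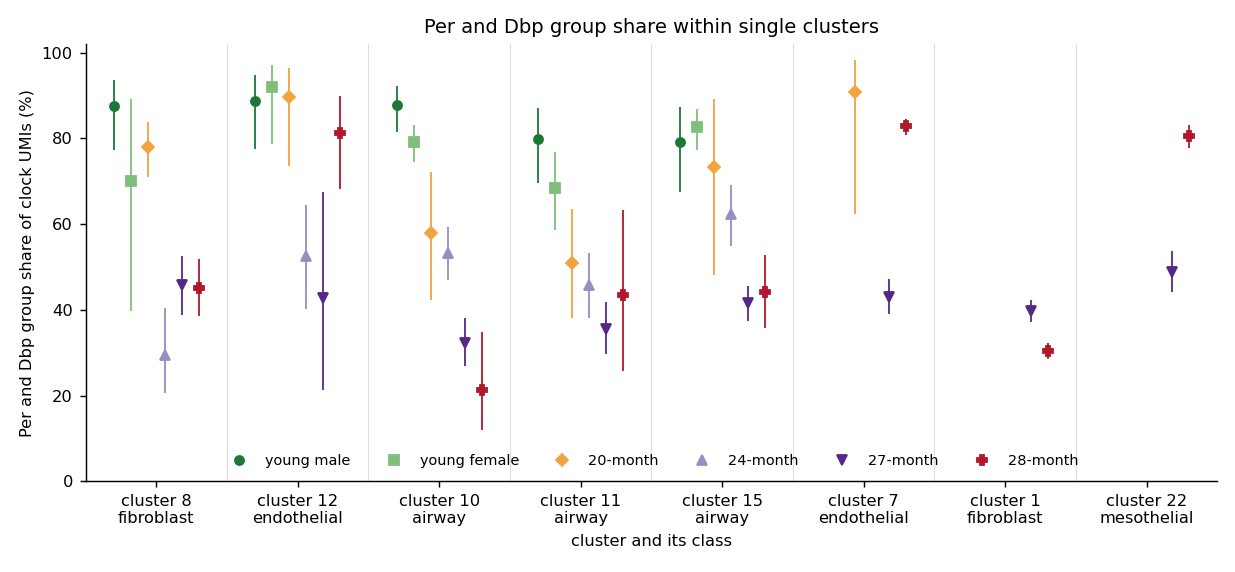
Share of the Per and Dbp group among clock UMIs in percent within single clusters, with 1 point for each library with at least 10 clock UMIs and bars for 95% Wilson intervals. In EC cluster 12 the 24 and 27 month libraries (52.5% and 42.9%) lie below the other 4 libraries, and in EC cluster 7 the 28 month library (82.8%) lies above the 27 month library (43.1%).

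Averaged over FBs, ECs, MΦs and airway cells, the share was 82.5% ± 9.71 (SD over 4 classes) in the young male, 78.8% ± 9.73 in the young female, 74.6% ± 12.5 in the 20 month, 46.3% ± 11.5 in the 24 month, 42.2% ± 4.06 in the 27 month and 47.7% ± 20.5 in the 28 month library. Young libraries had a mean of 80.6% ± 2.64 (SD, n = 2), and the old libraries one of 52.7% ± 14.8 (SD, n = 4). All 4 old libraries were below both young ones, and the 20 month library lay nearer to the young than to the other old libraries. This separation was lost with cells of at least 1000 UMIs and 500 genes, where the 20 month library was at 74.6% and the young female, over 2 classes, at 70.4%. It was also lost with cells thinned to 500 UMIs, at 81.8% and, over 3 classes, 78.1%. Against Clock and Cry1 alone the difference between groups was -15.4 points in place of -27.9.

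The 2 ages were next compared for single members over libraries. Of the 9 members, 3 had library effects lower in every old than in every young library: Per2 with a difference of -0.80, Nr1d2 of -0.91 and Ciart of -2.63 on the log2 scale. Among 11901 genes that passed a filter on low values, which include 8 of the members but not Ciart, 7.35% were lower and 7.79% higher in every old library, and no member was higher in every one. The exact permutation p was 0.13 for each, two-sided, which is the smallest that 2 against 4 libraries can give, so no member could pass a threshold of 0.05. Dbp was lower by a difference of -1.81, from 1.21 ± 0.65 (SD, n = 2) to -0.60 ± 1.38 (n = 4), with an exact p of 0.27, as the 20 month library exceeded the young male. The difference was -1.13 for Nr1d1 (exact permutation p = 0.40), -0.35 for Per1 (exact p = 0.27), -0.38 for Tef (exact p = 0.67), 0.72 for Cry1 (exact p = 0.27) and 0.30 for Clock (exact p = 0.67). With cells thinned to 500 UMIs the signs of Tef and Cry1 turned. The median difference of all 11901 genes was 0.12.

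Old and young libraries were then compared within each class with edgeR's quasi-likelihood test, adjusted over all genes tested in that class. Of the 10 members, 8 were tested in at least 1 of the 6 classes that could be fitted, and Ciart and Per3 did not pass the filter on low counts in any. No member passed at an adjusted p of 0.05 in any class. Of all genes tested, 0.0443% passed in FBs (3 of 6765, 0.0148% higher and 0.0296% lower in old) and 0% in each of the other 5 classes. At an unadjusted p under 0.05 there were 3 of 8 members in airway cells, where 6.15% of all genes reached it, 1 of 7 in ECs (5.71%), 1 of 3 in cluster 17 (5.26%), and 0 of 7 in FBs (6.27%), 0 of 4 in MΦs (5.06%) and 0 of 1 in B cells (6.63%). DESeq2 called 1 member, Dbp in airway cells, where it called 2 of all 8239 genes, and no member elsewhere.

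In airway cells Dbp had the smallest SE of its 3 tested classes. It was at 46.7 ± 15.1 CPM (SD, n = 2) in young and 8.0 ± 1.73 CPM (n = 4) in old libraries, a log2 fold change of -2.69 ± 0.40 (SE), with an adjusted p of 0.23 by edgeR. This missed the threshold, and of 16 alternatives DESeq2 (adjusted p = 0.047) and edgeR with no gene filter (adjusted p = 8.9e-05) passed it. Over the 16 the adjusted p reached 0.9998 and the log2 fold change lay between -3.36 and -2.23. By edgeR the adjusted p was 0.9997 with barcode sharing as a covariate, 0.9998 without the young female, 0.9994 without the 27 month library and 0.52 without shared-barcode cells. Nr1d2 had a log2 fold change of -1.48 ± 0.53 and Nr1d1 of -1.41 ± 0.51, both with an adjusted p of 0.77 by edgeR. Lower in every old library were 3 of the 8 members tested (Dbp, Nr1d1 and Nr1d2), against 6.6% of all 8239 genes, and Cry1 was higher in every old library, against 9.3%. The median log2 fold change was -0.83 over the 8 members and 0.02 over all genes.

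In ECs 7 members were tested, of which 6 had negative fold changes. Per2 had the largest, at -1.75 ± 0.65 (edgeR adjusted p = 0.86). Lower in every old library were 2 of the 7 (Dbp and Per2), against 7.73% of 5871 genes. Their young EC levels rested on only 14 UMIs for Dbp and 12 for Per2. In FBs, 6 of 7 fold changes were negative, with a median of -1.23 against 0.20 over all genes, and Tef alone was lower in every old library (7.39% of all genes). The young FB profiles held only 79223 and 20929 UMIs, and Dbp there had a log2 fold change of -3.09 ± 1.50. In MΦs 4 members were tested with a median of -0.26, and none was lower (6.46% of all genes) or higher (10.1%) in every old library. In B cells only Clock was tested, at -0.07 ± 0.76, and its groups overlapped (13.4% of all genes were lower and 19.7% higher in every old library). In cluster 17, where 2 of 3 members, Nr1d1 and Tef, were lower in every old library (12.8% of all genes), depth was low. All 8 smooth muscle markers were raised in this cluster, but none was among its leading genes, and it was left unnamed. Its leading genes held Tnnt2 and Actc1, listed as cardiac muscle markers, and Rgs5, listed as a pericyte marker. Its cells had a median of 0.185 of the median depth of their libraries. There Nr1d1 was at 156 ± 34.0 CPM in young and 26.3 ± 24.6 CPM in old libraries, from 6 and 11 UMIs. The log2 fold change was -1.89 ± 0.85 (adjusted p = 0.86 by edgeR).

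**Figure D5:**
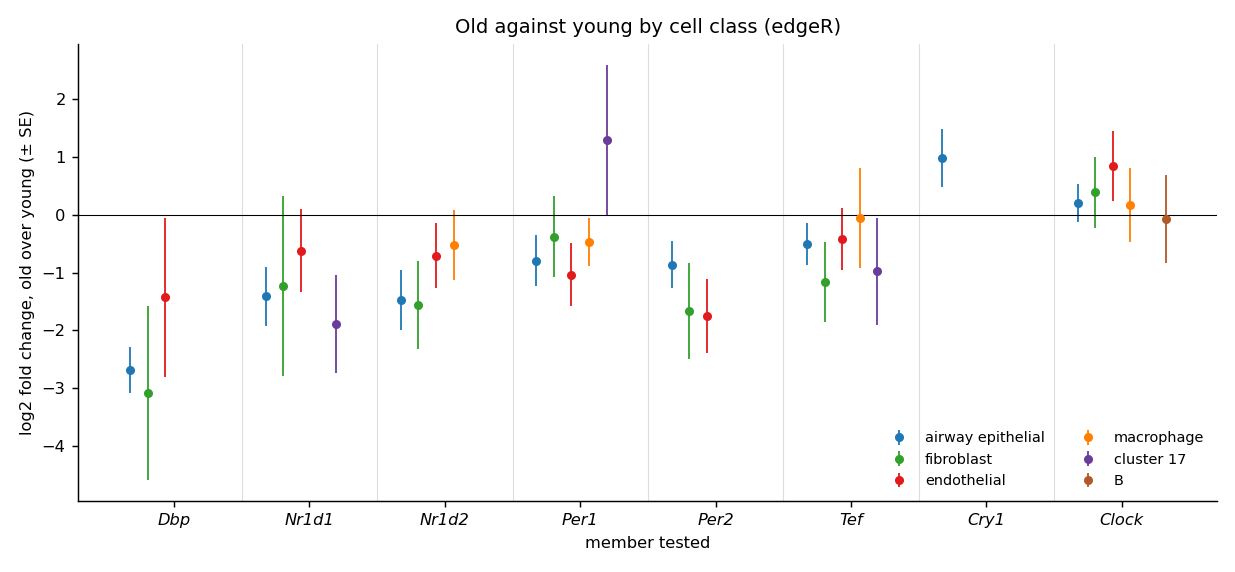
Log2 fold changes of old over young from edgeR for the 8 members that could be tested, with 1 colour for each class and bars for the SE. Dbp in airway cells, at -2.69 with an SE of 0.40, lies farthest from 0 for its SE among the members plotted, and Clock lies near or above 0 in the classes where it was tested.

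Of 16 other clock genes, 14 were tested in at least 1 class and none passed with edgeR as run for the members or with DESeq2. With no gene filter edgeR called 3 of them in airway cells, Arntl (adjusted p = 0.0006), Npas2 (adjusted p = 0.003) and Wee1 (adjusted p = 0.0035). That fit called 165 of all 24980 genes in airway cells, against 0 of 8239 in the fit as run for the members. At an unadjusted p under 0.05 by edgeR there were 5 of 13 in airway cells (6.15% of all genes), 3 of 14 in FBs (6.27%), 1 of 9 in ECs (5.71%), 1 of 8 in MΦs (5.06%), 0 of 3 in B cells (6.63%) and 0 of 4 in cluster 17 (5.26%). Arntl was at 14.2 ± 8.69 CPM in young and 90.1 ± 34.9 CPM in old airway cells (log2 fold change 2.35 ± 0.44, edgeR adjusted p = 0.77), and Npas2 at 20.5 ± 3.47 and 104 ± 79.6 CPM. Wee1 and Bhlhe40 were singled out after their values were seen. Wee1, which encodes a mitotic kinase driven by the clock, was lower in every old library in airway cells, ECs and FBs, with log2 fold changes of -2.09 ± 0.63, -2.46 ± 0.76 and -2.22 ± 0.66 and adjusted p of 0.77, 0.86 and 0.73 by edgeR. Its library effects were 0.87 in the young male, 1.26 in the young female and -0.35, -0.14, -0.56 and -1.08 in the 20, 24, 27 and 28 month libraries, so that unlike Dbp it was not high in the 20 month library. Bhlhe40, a clock repressor that stress and hypoxia also induce, was at 1.02 in the young male, 0.87 in the young female and -0.07, 0.64, -0.62 and -1.84 in the old ones.

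Between libraries lay a median of 35.2% of the variation of the 8 members that passed the filter, over the 24 profiles of the 4 shared classes on a log2(CPM + 10) scale, against 21.8% over 10304 genes. Between classes lay 33.1% and 37.7%. Clock had the highest share between libraries of the members at 76.2%, and Dbp had 37.1%.

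Genes of other responses moved between libraries as well. After class was removed, 15 immediate early genes, which tissue digestion can induce, had a summed library effect of -1.66 in the 28 month library and 0.23 to 0.45 in the other 5. For 9 glucocorticoid-responsive genes the effects lay between -0.65 and 0.41, and for 5 heat shock genes between -1.06 in the 28 month and 0.82 in the 20 month library. In the 4 shared classes the summed immediate early level ranged from 8695 to 27693 CPM in young and from 2852 to 21166 CPM in old libraries. In airway cells 6 of 15 immediate early, 4 of 9 glucocorticoid-responsive and 0 of 5 heat shock genes were lower in every old library (6.6% of all genes). Immediate early fold changes were negative for 14 of 15 genes in airway cells and in ECs, 13 of 15 in FBs and 10 of 15 in MΦs. They were negative for 0 of 13 in B cells and 1 of 14 in cluster 17. In the 24 and 27 month libraries, whose Dbp was low, the effect was 0.23 and 0.27 for immediate early genes. For glucocorticoid-responsive genes it was 0.41 and -0.47, beside 0.39 and 0.40 in the young male and female. The old minus young difference was -0.59 for immediate early, -0.59 for glucocorticoid-responsive and -0.38 for heat shock genes. The median difference of 8 members was -0.59. The part of these responses in the clock genes was not tested.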

How the data were processed

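Mouse PA cells were captured in droplets (10x 3′ v3.1) and sequenced as 6 libraries, 2 young and 4 old, each from the labels. The authors deposited raw UMI counts per gene and barcode, and the submitters' processing notes name cutadapt, STAR, STARsolo and GRCm38.p6, without versions. Unused per-sample columns numbered 0. Here barcodes with at least 500 UMIs, 300 genes and at most 20% mitochondrial UMIs were kept (15622), 213 doublets were removed, and cells were clustered without clock genes (scanpy 1.11.5, 2000 variable genes, 40 components, resolution 1) and named by markers. Counts were summed per class and library, and CPM, exact Poisson and Wilson intervals (95%) were computed, which cover counting error only. A count of 0 was given the level of 3 counts as its limit. Old and young were compared by edgeR 4.0.16 (TMM, quasi-likelihood, Benjamini-Hochberg over all genes of a class), with DESeq2 1.42.0 as an alternative, and by exact permutation of libraries. Genes needed a count in over 5% of the cells of a class in at least 3 libraries. The p-values measure the spread between these libraries. Named genes were the 10 members, the other clock genes used in the share, and the 5 genes most like Dbp and Nr1d1 each, and Wee1 and Bhlhe40 were added after their values were seen. Members and lists were chosen with earlier results of these data known. Alternatives changed the cell and gene filters, normalization, doublets, clustering, barcode sharing, depth and the libraries used. Scripts were tested on simulated data.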

Additional observations from a re-analysis of the deposited data

Results flagged for a closer look

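Nr1d2 in the 27 month library, with a library effect of -1.01, stood far from the other 3 old libraries, whose effects lay between -0.13 and 0.03. It was the only one of 14 groups tested for a distant sample, and chance sets apart about 1 in 20 such groups. Nr1d1 was also lowest in this library, at -1.65.

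Barcodes under 500 UMIs, which were left out of every comparison, held clock UMIs too. They held 6518262 of the 9487564 UMIs of the young male and 4764887 of the 6355125 UMIs of the young female. In the 20, 24, 27 and 28 month libraries they held 3511254 of 7042921, 8857570 of 12851645, 4822006 of 36218542 and 18957794 of 50436562 UMIs. The share of the Per and Dbp group in them was 43.4% in the young male, 56.7% in the young female, 76.3% in the 20 month, 51.1% in the 24 month, 52.3% in the 27 month and 64.4% in the 28 month library. The young male was lowest and the young female lay among the old libraries, so the young were not above the old as in kept cells. In the young male the share was below all of its shared classes, and these barcodes held 389 Arntl and 476 Npas2 UMIs, against 56 and 24 in its profiled cells. What these barcodes are was not tested.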

How the results depend on the processing

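Of 248 recomputed values, 244 kept their direction and side of the threshold. Some of the 244 are counts from fits in which no member was tested, so their 0 calls were fixed in advance. For library effects the exact p could not fall under 0.05 in any setting, and share differences had no threshold. For these only the direction could change. DESeq2 called 1 member in airway cells (Dbp) and edgeR with no gene filter 2 (Dbp and Nr1d2), where the edgeR test as reported called 0. Of all genes in airway cells these 2 fits called 2 of 8239 and 165 of 24980. With cells thinned to 500 UMIs the old minus young library effect turned to 0.11 for Tef and -0.13 for Cry1, and the cause was not tested. Leaving out 1 library at a time, members called numbered 0 in every class that could be fitted and had a member to test. In B cells no member was tested without the young female, 27 or 28 month library. In cluster 17 none was tested without the young male or 28 month library. With 1 library left out, the share difference lay between -35.2 (without the 20 month library) and -24.4 points. It was -15.4 points against Clock and Cry1 only, -22.9 with thinned cells and -34.3 within the 3 libraries that share barcodes. In single clusters present in all 6 libraries, an alternative chosen after seeing the data, it was -30.2 points. Those clusters were FB cluster 8, EC cluster 12 and airway clusters 10, 11 and 15. None of these share differences took in the barcodes under 500 UMIs, where the young libraries did not lie above the old ones. Library effect differences with 1 library left out lay between -2.42 and -1.36 for Dbp, -1.44 and -0.77 for Nr1d1, -1.18 and -0.62 for Nr1d2, -0.58 and -0.21 for Per1, -1.20 and -0.53 for Per2, -0.54 and -0.15 for Tef, -3.32 and -1.98 for Ciart, 0.25 and 1.04 for Cry1 and 0.08 and 0.53 for Clock. The filter of 1000 UMIs and 500 genes could be fitted only in airway cells and MΦs, cluster 17 could not be fitted with doublets kept, and edgeR within the barcode-sharing libraries alone was not run. Low counts limit Ciart, cluster 17 (8689 UMIs in its smallest profile) and the young B cell, FB and EC profiles. No paired analysis was possible because the labels carry no replicate numbers shared by young and old.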
